A study of Mus musculus with 9 samples.

Results

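Reactive gliosis and photoreceptor stress genes were examined in retinas of postnatal day 21 (P21) mice that lack the TET enzymes, which oxidise 5-methylcytosine and open the way to DNA demethylation. The members are 10 genes chosen by symbol: the secreted ligands Edn2, Lif and Fgf2, the receptor Osmr, the transcription factor Stat3, its inhibitor Socs3, and the glial and acute phase genes Gfap, Serpina3n, C4b and Lcn2. All 10 were found, each as a single row, among the 55487 genes of the deposited table. The question put to the data was whether the retinas of the mutants, in which rod transcripts were low, carried the transcripts of a stressed or gliotic retina.

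Bulk RNA-seq was done on whole retinas of C57 BL/6J mice, with 3 libraries for each of 3 genotypes, each of which pooled retinas of 2 animals. Cre- retinas, given the genotype WT in the labels, carry no Cre. tHet retinas are heterozygous for the floxed Tet1, Tet2 and Tet3 alleles and positive for Chx10-Cre-GFP, and Tet tcKO retinas are homozygous for the same floxed alleles and positive for Chx10-Cre-GFP. This transgene acts in retinal progenitors and is mosaic, so Cre+ animals of both genotypes were in-crossed to hold 2 functional copies, whereas Cre- animals came from Cre- breeders. A difference between Cre- and a Cre+ genotype therefore cannot be told apart from a difference between breeding lines, or from an effect of the transgene.

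Damaged photoreceptors release factors, among them endothelin 2, that act on Müller glia, the radial glia that span the retina. LIF and related cytokines signal through receptor complexes that share gp130 (Il6st), Janus kinases phosphorylate STAT3, and STAT3 activates the gene of its own inhibitor, SOCS3, as well as Gfap. GFAP, an intermediate filament, is made by the astrocytes of the nerve fibre layer in a healthy retina and by Müller glia when photoreceptors are injured. FGF2 protects photoreceptors, and Serpina3n, C4b and Lcn2 are widely used marks of reactive glia. Müller glia arise from the Chx10-expressing progenitors, whereas astrocytes and microglia migrate into the retina and do not.

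The promoters of 3 members are shown because the study turns on methylation of CpG sites, because Socs3 and Edn2 are the members with the smallest adjusted p-values versus Cre-, and because Gfap is the usual mark of gliosis. Each runs from 250 bases before to 50 bases after the gene's start in RefSeq (GRCm38.p6) and is written 5′ to 3′ on the gene's own strand, with CpG sites in capitals. The windows are chr11:117969317-117969616 on the minus strand for Socs3, chr4:120160956-120161255 on the plus strand for Edn2 and chr11:102897151-102897450 on the minus strand for Gfap. The windows of Socs3 and Gfap lie inside the intervals that GENCODE gives for these genes.
Socs3: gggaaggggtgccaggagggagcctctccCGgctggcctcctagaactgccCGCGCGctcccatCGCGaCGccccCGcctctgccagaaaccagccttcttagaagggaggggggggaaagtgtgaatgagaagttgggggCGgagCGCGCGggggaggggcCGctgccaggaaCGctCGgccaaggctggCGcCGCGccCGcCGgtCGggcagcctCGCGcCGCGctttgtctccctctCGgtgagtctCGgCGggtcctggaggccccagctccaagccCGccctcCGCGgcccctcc
Edn2: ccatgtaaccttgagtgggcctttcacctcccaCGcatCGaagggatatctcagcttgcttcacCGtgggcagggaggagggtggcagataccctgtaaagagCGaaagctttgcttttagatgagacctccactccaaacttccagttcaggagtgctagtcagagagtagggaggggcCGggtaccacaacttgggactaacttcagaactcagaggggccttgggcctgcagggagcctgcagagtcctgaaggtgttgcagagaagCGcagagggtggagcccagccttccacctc
Gfap: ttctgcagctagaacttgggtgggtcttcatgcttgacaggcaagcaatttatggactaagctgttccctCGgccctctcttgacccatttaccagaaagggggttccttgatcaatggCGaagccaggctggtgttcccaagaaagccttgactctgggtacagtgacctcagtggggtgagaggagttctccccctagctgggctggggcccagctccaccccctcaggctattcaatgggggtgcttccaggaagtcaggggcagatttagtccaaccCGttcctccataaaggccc
The Socs3 window holds 31 CpG sites, the Edn2 window 6 and the Gfap window 3. Over all 32851 RefSeq promoters of this length the median was 7 sites, with quartiles of 3 and 20. Of the other members with a window, Fgf2 had 24, Osmr 22, Stat3 15, Lif 7, and Lcn2 and Serpina3n 3 each; C4b had none in the table. The STAT motif TTCNNNGAA, a palindrome searched on both strands, occurs in 2 of the 9 windows. It reads TTCTTAGAA in Socs3, starting 154 bases before the start, and TTCCAGGAA in Gfap, starting 2 bases before it. This motif is found in 8.30% of all promoters, and a match describes letters, not binding. Methylation of these windows was not analysed here.

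Reads counted on genes numbered 14813873 to 16987479 in the Cre- libraries, 9627927 to 21108256 in the tHet libraries and 15176156 to 16840792 in the Tet tcKO libraries. All values are in CPM, the counts of a gene scaled to the total of its library. A single read was worth 0.0474 to 0.104 CPM, and 3 reads, taken as the smallest detectable level, 0.142 to 0.312 CPM. Floors and count intervals cover counting error only. In Tet tcKO replicate 3, 28.7% of the reads lay on the ribosomal RNA gene CT010467.1, against 3.72% in tHet replicate 3 and 0.0409% to 0.226% in the other libraries, which lowers the CPM of every other gene in that library. Tet tcKO replicate 3 was the lowest of the 9 libraries for 4 of the 10 members and Tet tcKO replicate 1 the highest for 4. Tet3 was at 99.2 to 152 CPM in Tet tcKO, below every Cre- library (213 to 268) and every tHet library (155 to 288), while Tet1 and Tet2 overlapped between genotypes, and reads of exons left after recombination are included. Summed markers of rods ran from 977 to 7880 CPM in Tet tcKO against 26567 to 32625 in Cre- and 22561 to 28451 in tHet. In bulk tissue, fewer cells of a type and less RNA per cell cannot be told apart, and a loss of abundant rod transcripts raises the share of all others.

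Socs3 was the member that changed versus both controls, and the others did not pass the test as fitted without a block. A gene counted as called when its log2 fold change (log2FC, on log2(CPM + 0.5)) was at least 1 in either direction with a limma adjusted p under 0.01. In Tet tcKO versus Cre- retinas 1 of 10 members was called, against 3.6% of the 21330 genes tested (2.03% higher and 1.57% lower). With the replicate number as a block the count was 3, with Serpina3n and Edn2 added, the latter tested only through its Cre- libraries. In Tet tcKO versus tHet retinas 1 of 10 was called, against 3% of all genes (1.39% higher and 1.61% lower). In tHet versus Cre- retinas 0 of 10 were called, against 0.0422% of all genes. In the last comparison 2 members, Gfap and Lif, had an unadjusted limma p under 0.05, the latter tested only with its tHet libraries. In that comparison edgeR and DESeq2 on recovered reads also called 0. For each gene list with 0 calls in limma, edgeR and DESeq2 gave 0 as well unless stated, and the number of genes at an unadjusted limma p under 0.05 is added. The median log2FC of the members was 0.04, −0.28 and 0.14 in the order of these comparisons, and that of all tested genes 0.00, −0.06 and 0.06.

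**Figure D1:**
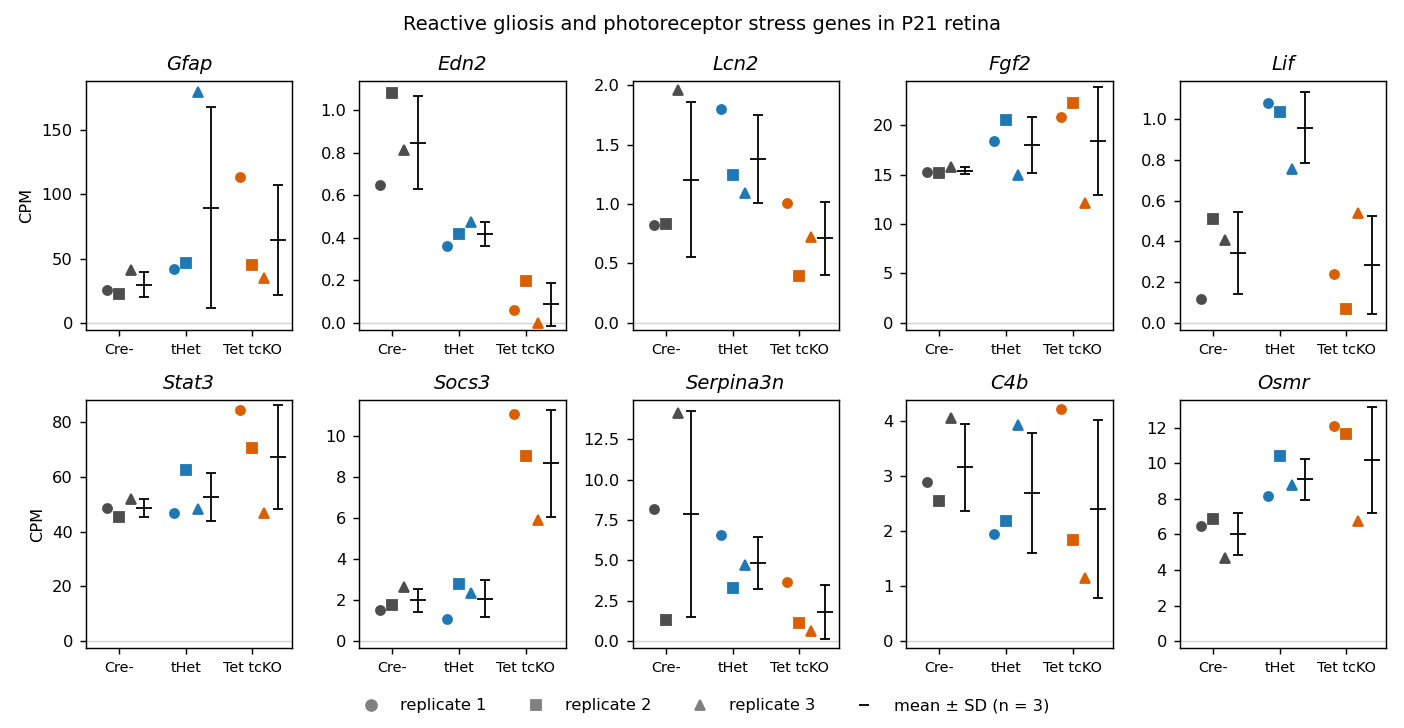
Transcript level in CPM (y axis, linear, 1 panel per gene) of the 10 members in each library of Cre-, tHet and Tet tcKO retinas. Symbols mark the replicate number and bars give the mean ± SD (n = 3). The Socs3 libraries of Tet tcKO, from 5.90 CPM upwards, lie above all others, and those of Edn2, 0 to 0.198 CPM, below all others.

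Edn2, a vasoactive peptide that injured photoreceptors make, was scarce and followed the order Cre-, tHet, Tet tcKO. It was at 0.648, 1.08 and 0.810 CPM in Cre- replicates 1, 2 and 3, at 0.360, 0.415 and 0.474 CPM in tHet, and at 0.0594, 0.198 and 0 CPM in Tet tcKO. The libraries of the 3 genotypes did not overlap. The Cre- libraries held 40 reads, the tHet libraries 19 and the Tet tcKO libraries 4, so that the level was 10.2-fold lower in Tet tcKO than in Cre- by reads (95% exact interval 3.70 to 39.4) and 5.18-fold lower than in tHet (1.72 to 20.9). The 0 in Tet tcKO replicate 3 allows up to 0.181 CPM. The log2FC was −1.20 (limma adjusted p = 0.0161, standard error 0.30) versus Cre- and −0.66 (adjusted p = 0.254) versus tHet, and neither passed the threshold. Edn2 was tested only because all 3 Cre- libraries reached the filter of 0.5 CPM, which no other library did, so a lower level elsewhere was built into its selection. Versus Cre- it was called with the replicate number as a block (adjusted p = 0.00729), with total counts taken without CT010467.1 (adjusted p = 0.00989) and by DESeq2 on recovered reads (log2FC −3.38, adjusted p = 0.00675). These calls and the interval by reads versus Cre- set Edn2 against the group that let it pass the filter. They therefore cannot show how sure the fall is.

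No other gene of the endothelin axis was called lower. Of 7 genes listed, all were tested and Mme, the membrane peptidase neprilysin that cleaves endothelins among other peptides, was called higher versus Cre-. It was at 2.53, 1.65 and 2.43 CPM in Cre-, 2.45, 3.53 and 3.60 CPM in tHet, and 22.6, 11.4 and 7.77 CPM in Tet tcKO, where every library lay above all controls. Its log2FC was 2.30 versus Cre- (limma adjusted p = 0.000271) and 1.85 versus tHet (adjusted p = 0.00247). Ece1, the enzyme that cuts endothelins from their precursors, rose versus tHet (log2FC 1.14, adjusted p = 0.00455) and was at 0.99 (adjusted p = 0.0120) versus Cre-. Ednrb, the endothelin receptor that glia carry, was at 16.8 CPM on average in Tet tcKO against 7.35 in Cre- (log2FC 1.09, adjusted p = 0.0264) and 10.1 in tHet. Versus Cre-, Ednrb was called by DESeq2 and with the replicate block (adjusted p = 0.00679), and Ece1 by edgeR. Edn1 was at 1.31, 1.61 and 1.51 CPM in Tet tcKO, Cre- and tHet (log2FC −0.22 versus Cre-).

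Lif, a cytokine that signals through gp130, did not exceed 1.08 CPM in any library. It was at 0.118, 0.509 and 0.405 CPM in Cre-, 1.08, 1.04 and 0.758 CPM in tHet and 0.238, 0.0659 and 0.542 CPM in Tet tcKO. The tHet libraries lay above all others, while Cre- and Tet tcKO overlapped. These values rest on 16, 41 and 14 reads in the same order. All 3 tHet libraries reached the filter of 0.5 CPM, against 1 in Cre- and 1 in Tet tcKO. Lif was therefore tested only with its tHet libraries, and a higher level in tHet was favoured by this selection. The log2FC was −0.13 in Tet tcKO versus Cre- (95% interval −0.81 to 0.56, limma adjusted p = 0.945), −0.94 in Tet tcKO versus tHet (adjusted p = 0.109) and 0.81 in tHet versus Cre- (adjusted p = 0.9998).

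The other ligands of gp130 receptors were scarce too, Clcf1 less so than Lif. Of 7 listed, 2 were tested, and 0 were called or had an unadjusted p under 0.05 in either comparison with Tet tcKO. Clcf1, which acts through the CNTF receptor, was at 2.27 CPM in Tet tcKO and 1.52 in Cre- (log2FC 0.46), and Ctf1 at 1.08 in each (log2FC −0.02). Il6 had 2 reads and Osm, a ligand of the OSMR receptor, 0 reads over all 9 libraries, while Cntf reached at most 0.675 CPM.

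Fgf2, the growth factor that rises in stressed photoreceptors and Müller glia, did not pass the test in any comparison. It was at 15.2, 15.2 and 15.8 CPM in Cre-, 18.4, 20.6 and 15.0 CPM in tHet, and 20.8, 22.3 and 12.2 CPM in Tet tcKO. Tet tcKO replicate 3 was the lowest library and the remaining Tet tcKO libraries the highest. The log2FC was 0.20 versus Cre- (95% interval −0.33 to 0.74, limma adjusted p = 0.851) and −0.00 versus tHet (−0.54 to 0.54), the latter with a sign that turned under TMM scaling (0.07) and without CT010467.1 (0.14). Exons of Nudt6 on the opposite strand and Gm43439 on the same strand overlap Fgf2, and the sources used here do not say how the counting treated strand. Of the 12 other genes of the FGF and neurotrophic axis 11 were tested and 0 called (5 at an unadjusted p under 0.05 versus Cre- and 4 versus tHet). Fgfr1, an FGF receptor, was at 23.4 CPM in Tet tcKO and 12.8 in Cre- (log2FC 0.84, adjusted p = 0.0288).

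Osmr, the receptor subunit that pairs with gp130 to bind oncostatin M, was higher on average in both Cre+ genotypes without passing the test. It was at 6.48, 6.87 and 4.66 CPM in Cre-, 8.14, 10.4 and 8.76 CPM in tHet, and 12.1, 11.7 and 6.74 CPM in Tet tcKO. Every tHet library lay above every Cre- library, and Tet tcKO replicate 3 fell among the Cre- libraries. Against Cre-, Tet tcKO had a log2FC of 0.69 (limma adjusted p = 0.218, standard error 0.29) and tHet of 0.57 (adjusted p = 0.9998), and Tet tcKO against tHet had 0.12. With totals taken without CT010467.1, Tet tcKO replicate 3 stood at 9.46 CPM, above all Cre- libraries, and the log2FC was 0.84 (adjusted p = 0.0272).

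Several receptors and kinases that carry these signals were abundant, and none passed the test. All 8 listed were tested and 0 were called in Tet tcKO versus Cre- (0 at an unadjusted p under 0.05, and 1 versus tHet), with log2FC from −0.17 to 0.51 and a median of 0.15. Il6st, the shared subunit gp130, was at 104, 97.5 and 97.3 CPM in Tet tcKO, Cre- and tHet (log2FC 0.06 versus Cre-). Lifr, the LIF receptor, was at 142, 129 and 140 CPM (0.13), and the kinase Jak1 at 145, 159 and 153 CPM (−0.17). Cntfr, the CNTF receptor, was at 16.3, 11.6 and 9.07 CPM (log2FC 0.46, limma adjusted p = 0.414).

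Stat3, the factor these receptors activate, was at 48.4, 45.4 and 51.8 CPM in Cre-, 46.7, 62.5 and 48.2 CPM in tHet, and 84.3, 70.3 and 46.8 CPM in Tet tcKO. Tet tcKO replicates 1 and 2 were the highest of the 9 libraries, and replicate 3 lay among the controls. The log2FC was 0.42 versus Cre- (95% interval −0.06 to 0.91, limma adjusted p = 0.409) and 0.32 versus tHet (adjusted p = 0.535). Taken without CT010467.1, Tet tcKO replicate 3 stood at 65.6 CPM, so that all Tet tcKO libraries lay above all controls, with a log2FC of 0.58 (adjusted p = 0.0283) and 0.47 (adjusted p = 0.0783). An exon of Stat5a overlaps Stat3 on the opposite strand. RNA levels do not measure phosphorylated STAT3.

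Socs3, the feedback inhibitor that STAT3 induces, rose in Tet tcKO retinas versus both controls. It was at 1.53, 1.78 and 2.63 CPM in Cre-, 1.08, 2.80 and 2.32 CPM in tHet, and 11.05, 9.03 and 5.90 CPM in Tet tcKO. Every Tet tcKO library lay above every control library, Tet tcKO replicate 3 included. The mean of 8.66 ± 2.59 CPM (SD, n = 3) was 4.37-fold that of Cre- (1.98 ± 0.58) and 4.19-fold that of tHet (2.07 ± 0.89), and it rests on 421 reads against 93 and 91. The log2FC was 1.87 versus Cre- (limma adjusted p = 0.00197, standard error 0.36) and 1.86 versus tHet (standard error 0.36, adjusted p = 0.00235), and 0.01 in tHet versus Cre- (95% interval −0.74 to 0.75). Without CT010467.1 it was 2.02 (adjusted p = 0.00184) and 2.00 (adjusted p = 0.00237). The direction held in all refits of both comparisons with Tet tcKO (21 versus Cre- and 20 versus tHet), but the call versus Cre- was lost without Tet tcKO replicate 1 (log2FC 1.68, adjusted p = 0.0247). Versus tHet it was lost without tHet replicate 1 (1.54, adjusted p = 0.0270), Tet tcKO replicate 1 (1.67, adjusted p = 0.0312) or Tet tcKO replicate 3 (2.10, adjusted p = 0.0107).

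No other STAT or SOCS gene passed the test. Of 14 listed 13 were tested and 0 were called in Tet tcKO versus Cre- (1 at an unadjusted p under 0.05, as versus tHet), with log2FC from −0.62 to 0.52 and a median of −0.05. Socs2, the relative that restrains growth hormone signalling, was at 6.26 CPM in Tet tcKO and 9.74 in Cre- (log2FC −0.62, limma adjusted p = 0.247).

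**Figure D2:**
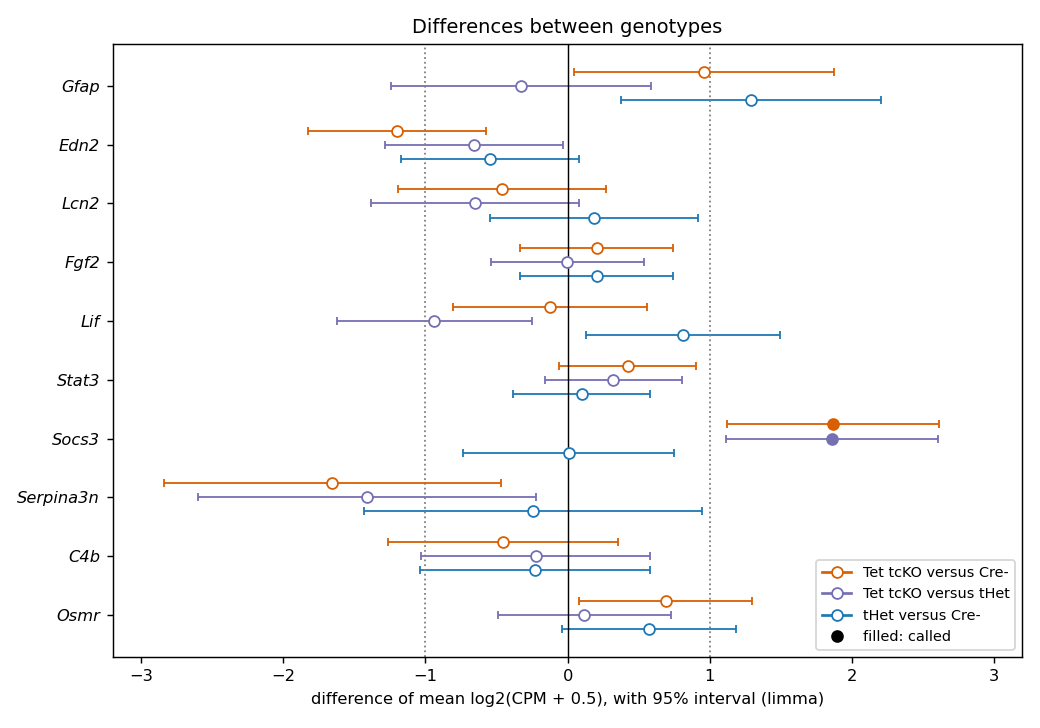
Difference between genotypes in mean log2(CPM + 0.5) (x axis) with its 95% limma interval for each member and each of the 3 comparisons, which share libraries. Dotted lines mark a log2FC of −1 and 1 and filled points are called. Socs3 in both comparisons with Tet tcKO (1.87 and 1.86) holds the filled points, and the intervals of Serpina3n are the widest, with a standard error of 0.57.

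Gfap had the highest level per length of all members in every genotype, at 7.04, 21.2 and 15.3 CPM per kb of exon in Cre-, tHet and Tet tcKO, and also a wide spread. It was at 25.7, 22.5 and 40.8 CPM in Cre-, 42.2, 46.6 and 180 CPM in tHet, and 113, 45.3 and 34.9 CPM in Tet tcKO. Every tHet library lay above every Cre- library, tHet replicate 3 stood far above the other tHet libraries, and the Tet tcKO libraries overlapped both controls. Against Cre-, Tet tcKO had a log2FC of 0.96 (limma adjusted p = 0.271, standard error 0.44) and tHet of 1.29 (adjusted p = 0.929), and Tet tcKO against tHet had −0.33 (adjusted p = 0.793). Without Tet tcKO replicate 1 the log2FC against Cre- was 0.46, and without tHet replicate 3 that of Tet tcKO against tHet turned to 0.34 and that of tHet against Cre- was 0.62. Taken without CT010467.1, Tet tcKO replicate 3 stood at 48.9 CPM, and all Tet tcKO libraries lay above all Cre- libraries (log2FC 1.12, adjusted p = 0.201).

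In the Cre+ genotypes, the library with the most Gfap also held the most transcripts of astrocyte and microglia markers. The 5 astrocyte markers summed to 293 CPM in tHet replicate 3 against 208 and 187 in its other libraries, and to 233 CPM in Tet tcKO replicate 1 against 195 and 112. The 9 microglia markers summed to 66.0 CPM in tHet replicate 3 against 44.6 and 47.5, and to 95.3 CPM in Tet tcKO replicate 1 against 71.0 and 47.7. In Cre- this was not so, since replicate 3 had the most Gfap and replicate 1 the highest sum of both lists. The sums of Müller glia (2787 CPM against 2174 and 2178) and of endothelium and pericytes (368 against 285 and 349) were also highest in tHet replicate 3. So were those of ciliary body (173 against 141 and 122) and lens (45.9 against 29.9 and 7.06), but not those of the other lists. In Tet tcKO replicate 1 none of these was highest (Müller glia 2316 against 2475 and 1894, endothelium and pericytes 417 against 424 and 284). The ciliary body sum ran from 65.7 to 69.2 CPM in Cre-, 122 to 173 in tHet and 124 to 199 in Tet tcKO. Between genotypes the astrocyte sum ran from 226 to 308 CPM in Cre-, 187 to 293 in tHet and 112 to 233 in Tet tcKO, with 0 of 5 markers called (4 at an unadjusted p under 0.05 versus Cre- and 1 versus tHet). Aldoc made up most of this sum and had a log2FC of −0.95 versus Cre-, while Pax2 (0.93), S100b (0.85) and Pdgfra (0.75) were above 0. Pax2, the transcription factor that defines these cells, was at 0.686, 0.936 and 1.76 CPM on average in Cre-, tHet and Tet tcKO. Marker sums here and below use totals that include CT010467.1, which lowers those of Tet tcKO replicate 3. The part of these cells and of the other tissues named in the Gfap values was not tested.

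The summed markers of Müller glia overlapped between genotypes, while 5 of the 12 changed in a comparison with Tet tcKO. The 12 summed to 2271 to 2896 CPM in Cre-, 2174 to 2787 in tHet and 1894 to 2475 in Tet tcKO. The lowest of the Tet tcKO sums was that of replicate 3, in which 28.7% of the reads lay on CT010467.1. Glul, the glutamine synthetase that clears glutamate, was at 1159, 840 and 1030 CPM in Cre-, 802, 820 and 961 CPM in tHet, and 350, 514 and 301 CPM in Tet tcKO, where every library lay below all controls. It fell with a log2FC of −1.40 versus Cre- (limma adjusted p = 0.00147) and −1.18 versus tHet (adjusted p = 0.00688). Rlbp1, the retinoid binding protein CRALBP of the visual cycle, fell by 1.64 and 1.47 on the log2 scale (adjusted p = 0.000132 and 0.000485), and the lipid transporter Abca8a by 1.60 and 1.34. Apoe, the lipid carrier made by Müller glia and microglia, rose in both comparisons (log2FC 1.17 and 1.17, adjusted p = 0.00538 and 0.00636), at 486, 428 and 549 CPM in Tet tcKO against 148 to 320 in the controls. DESeq2 called it in both comparisons too, edgeR in neither. The carbonic anhydrase Car14 fell versus tHet (log2FC −1.75, adjusted p = 0.00278) and was at −1.26 (adjusted p = 0.0280) versus Cre-. Neither edgeR nor DESeq2 called Car14 versus tHet, and edgeR did not call Abca8a there, whereas the fit with the replicate block called Car14 versus Cre- as well (adjusted p = 0.000233). The remaining 7 markers were not called. Among them Sox9 was at 53.0, 51.7 and 36.3 CPM in Tet tcKO against 21.8 to 31.1 in the controls. Its log2FC was 0.70 versus Cre- (adjusted p = 0.0745) and 0.88 versus tHet (adjusted p = 0.0209). Dkk3 (0.55 and 0.73) and Lhx2 (0.51 and 0.74) were above 0 as well, and Aqp4 (−0.37 and −0.20) was below. Of all 12 markers 5 had a log2FC above 0 versus Cre- and 7 below.

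Of the 11 genes listed here as pan-reactive, which astrocytes raise after injury, 8 were tested. All 8 had a log2FC above 0 in Tet tcKO versus Cre- (median 0.69, against 0.00 over all genes), and 2 were called higher. Gfap, Lcn2, Osmr and Serpina3n, which are usually counted with these genes, were kept apart as members, and of them Lcn2 (log2FC −0.46) and Serpina3n (−1.65) lay below 0. S1pr3, a sphingosine-1-phosphate receptor, was at 8.89, 11.6 and 8.24 CPM in Cre-, 9.51, 13.1 and 9.85 CPM in tHet, and 47.3, 41.2 and 34.0 CPM in Tet tcKO (log2FC 2.04 and 1.87 versus Cre- and tHet, limma adjusted p = 1.84e-05 and 6.29e-05). Tnc, the matrix protein tenascin C, was at 22.3 to 23.8 CPM in Cre-, 15.1 to 32.8 in tHet and 55.4 to 103 in Tet tcKO (log2FC 1.79 and 1.86, adjusted p = 0.000225 and 0.000189). Vim, the filament that Müller glia make at all times, was at 180 CPM in Tet tcKO and 157 in Cre- (log2FC 0.18, adjusted p = 0.887). Of the 11 A1 genes, known from astrocytes in inflammation, 1 was called, Amigo2, an adhesion molecule of neurons too, which fell versus Cre- (log2FC −1.58, adjusted p = 0.001) and not past the threshold versus tHet (−1.17, adjusted p = 0.0139). Versus Cre-, 8 of the 11 had a log2FC above 0 and 3 below (median 0.35). DESeq2 added the complement inhibitor Serping1 versus Cre- (limma log2FC 1.45, adjusted p = 0.0122, or 0.00274 with the replicate block). It also called H2-D1 and Iigp1 versus tHet (limma log2FC 1.03 and 1.38). Of the 11 A2 genes, known from astrocytes after ischaemia, 9 were tested and 0 called (2 at an unadjusted p under 0.05 versus Cre- and 1 versus tHet).

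**Figure D3:**
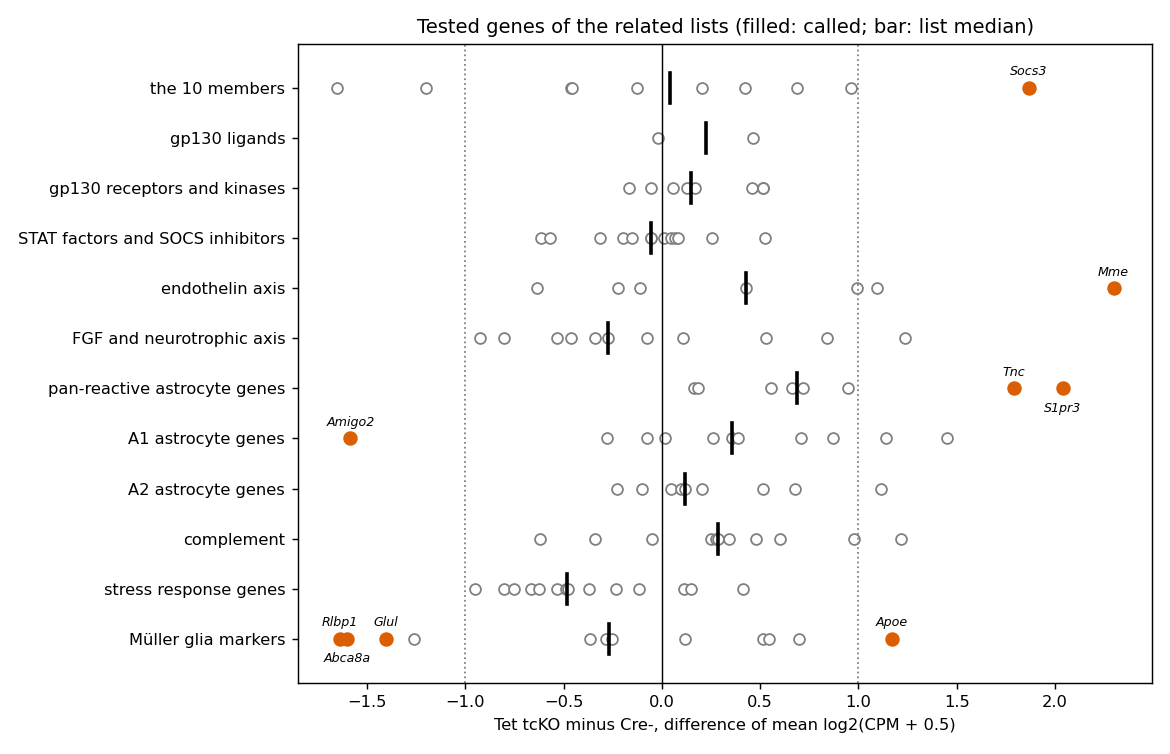
Difference in mean log2(CPM + 0.5), Tet tcKO minus Cre- (x axis), of every tested gene in the members and in each related list (y axis). Filled and named points are called and bars mark the median of each list. The median is 0.04 for the members, 0.69 for the pan-reactive genes and −0.48 for the stress response genes.

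Serpina3n, an acute phase protease inhibitor that reactive astrocytes make, was lower on average in Tet tcKO with libraries that overlapped. It was at 8.18, 1.34 and 14.1 CPM in Cre-, 6.55, 3.32 and 4.69 CPM in tHet, and 3.68, 1.12 and 0.602 CPM in Tet tcKO. Cre- replicate 2 lay among the Tet tcKO libraries. The log2FC was −1.65 versus Cre- (limma adjusted p = 0.1001, standard error 0.57) and −1.41 versus tHet (adjusted p = 0.180). With the replicate number as a block it was called versus Cre- (adjusted p = 0.00418), a pairing that the labels do not state. It was lower in Tet tcKO in all 3 pairs of the same number, but in pair 2 only by 17 reads against 21. Without Cre- replicate 2 it was −2.53 versus Cre- and called (adjusted p = 0.000259), and without Cre- replicate 3 it was −1.03 (adjusted p = 0.519). The near relatives Serpina3c, Serpina3f, Serpina3g, Serpina3h, Serpina3i, Serpina3k and Serpina3m held 0 to 16 reads each over all 9 libraries.

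Markers of the pigment epithelium, which lies against the retina, moved with Serpina3n in part of the libraries. The 7 pigment epithelium markers summed to 149, 35.1 and 79.6 CPM in Cre- replicates 1, 2 and 3, to 148, 112 and 138 CPM in tHet and to 33.7, 29.0 and 23.3 CPM in Tet tcKO. Cre- replicate 2 was therefore low in both. Lrat and Rpe65, enzymes of the visual cycle in the pigment epithelium, were called lower versus both controls, though edgeR did not call Lrat versus Cre-. Without CT010467.1, 1 of the pigment epithelium markers was called versus Cre-. Of the 6 tested, 2 had a log2FC above 0 versus Cre-. The 6 lens markers summed to 16.5, 45.8 and 79.4 CPM in Cre- and to 4.69 to 24.3 in Tet tcKO, with 0 of 6 called and 4 at an unadjusted p under 0.05, and Crybb2 called lower with the replicate block (adjusted p = 0.00429), as was Ttr of the pigment epithelium (adjusted p = 9.45e-05). The part of these tissues in the Serpina3n values was not tested.

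C4b, complement component 4, did not pass the test in any comparison. It was at 2.88, 2.54 and 4.05 CPM in Cre-, 1.94, 2.18 and 3.93 CPM in tHet, and 4.22, 1.84 and 1.14 CPM in Tet tcKO, which gave a log2FC of −0.46 (95% interval −1.26 to 0.35, limma adjusted p = 0.710) and −0.23 (−1.03 to 0.58). Its close copy C4a, with which reads can be confused, was at 1.03 CPM in Tet tcKO and 1.44 in Cre- (log2FC −0.34). Of the 13 other complement genes 11 were tested and 0 called (2 at an unadjusted p under 0.05 versus Cre- and 4 versus tHet). C1qa, part of the initiating complex that microglia make, was at 5.42 CPM in Tet tcKO and 2.01 in Cre- (log2FC 1.21, adjusted p = 0.0897), and C3, the central component, at 1.75 and 2.80 (log2FC −0.62, adjusted p = 0.529). Of the 9 microglia markers 1, the fractalkine receptor Cx3cr1, rose versus Cre- (log2FC 1.31, adjusted p = 0.00935) and was not called versus tHet (0.64, adjusted p = 0.283), nor by edgeR versus Cre-. Of the 9 microglia markers 8 had a log2FC above 0 and 1 below, both versus Cre- (median 0.49) and versus tHet (median 0.33). Their sum ran from 36.7 to 50.4 CPM in Cre-, 44.6 to 66.0 in tHet and 47.7 to 95.3 in Tet tcKO. Aif1, which defines microglia, was at 0.817 CPM in Tet tcKO, 0.473 in tHet and 0.398 in Cre-.

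Lcn2, a siderophore binding lipocalin of reactive glia and neutrophils, was near 1 CPM throughout. It was at 0.824, 0.827 and 1.96 CPM in Cre-, 1.80, 1.25 and 1.09 CPM in tHet, and 1.01, 0.395 and 0.723 CPM in Tet tcKO. The Tet tcKO libraries lay below all tHet libraries and overlapped Cre-. The log2FC was −0.46 versus Cre- (95% interval −1.19 to 0.27, limma adjusted p = 0.644) and −0.65 versus tHet (adjusted p = 0.361). Of the 7 neutrophil markers 6 were below the filter, with 1 read of Elane, 2 of S100a8, 3 of Ltf, 6 of Mpo, 14 of S100a9 and 30 of Camp in all 9 libraries. Ngp was tested and not called, with means of 0.513, 0.683 and 0.357 CPM in the order Cre-, tHet, Tet tcKO. The part of these cells in the Lcn2 values was not tested. A lipocalin relative, the prostaglandin D synthase Ptgds, fell versus tHet (log2FC −1.68, adjusted p = 0.00658) and was at −1.03 (adjusted p = 0.114) versus Cre-, a call that edgeR did not make.

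General stress response genes did not pass the test in either direction. Of 15 listed, which cover metallothioneins, the unfolded protein response and immediate early factors, 14 were tested and 0 called in Tet tcKO versus Cre- (2 at an unadjusted p under 0.05, and 3 versus tHet), and 11 had a log2FC below 0 (median −0.48). Atf3, an injury-induced factor of neurons, was at 2.46 CPM in Tet tcKO and 3.81 in Cre- (log2FC −0.53, limma adjusted p = 0.492). Hmox1, the heme oxygenase of the oxidative stress response, was at 0.911 and 1.46 CPM (log2FC −0.48, adjusted p = 0.610). The other 3 tested genes lay above 0, with Hspa5 of the unfolded protein response the highest (log2FC 0.41, adjusted p = 0.339). Hspa5 was at 342, 340 and 305 CPM in Tet tcKO against 238 to 277 in the controls.

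Counted by libraries rather than by the test, 2 of 10 members did not overlap between Tet tcKO and Cre- (Socs3 above, Edn2 below), against 19.6% of all tested genes (10% with every library above and 9.6% below). Between Tet tcKO and tHet 4 did not overlap (Socs3 above, and Edn2, Lcn2 and Lif below), against 17% (7.35% above and 9.68% below). Between tHet and Cre- 4 did not overlap (Gfap, Lif and Osmr above, Edn2 below), against 11.1% (5.78% above and 5.37% below). With totals taken without CT010467.1 these counts were 6, 5 and 4, against 31.5%, 27.7% and 11.4% of all genes, the added members being Gfap, Fgf2, Stat3 and Osmr above Cre- and Stat3 above tHet. The median of all genes was then shifted to 0.14 in Tet tcKO versus Cre- and 0.07 versus tHet. A share of 2 in 10 is thus close to that of all genes in the first comparison. In both comparisons with Cre-, Edn2 was bound to lie below, because only its Cre- libraries reached the filter. Lif passed the filter only with its tHet libraries, so a tHet level above Cre- and Tet tcKO was favoured by its selection.

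Over the 9 libraries, which share genotype and scaling, the highest Pearson correlations of log2(CPM + 0.5) among the 45 pairs of members were those of Stat3 with Socs3 and Fgf2 with Stat3 (r = 0.79 each). Edn2 and Socs3 had r = −0.73, and Gfap had r = 0.41 with Stat3 and 0.34 with Socs3. Among non-members with a mean of at least 1 CPM, the genes most like Gfap were Rab13, Rcan1, Gm30191, Itgb4 and Tnks1bp1 (r = 0.90 to 0.94). Those most like Edn2 were Map10, Taf4b, Abca6, Nipal1 and Rad54b (0.94 to 0.97), and those most like Stat3 were Asxl3, Ss18l1, Dgkz, Nkap and Cic (0.98 to 0.99). For Socs3, added after its values were seen, they were Dennd2a, Elmsan1, Zfp704, Prmt8 and Dach1 (0.97 to 0.98).

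**Figure D4:**
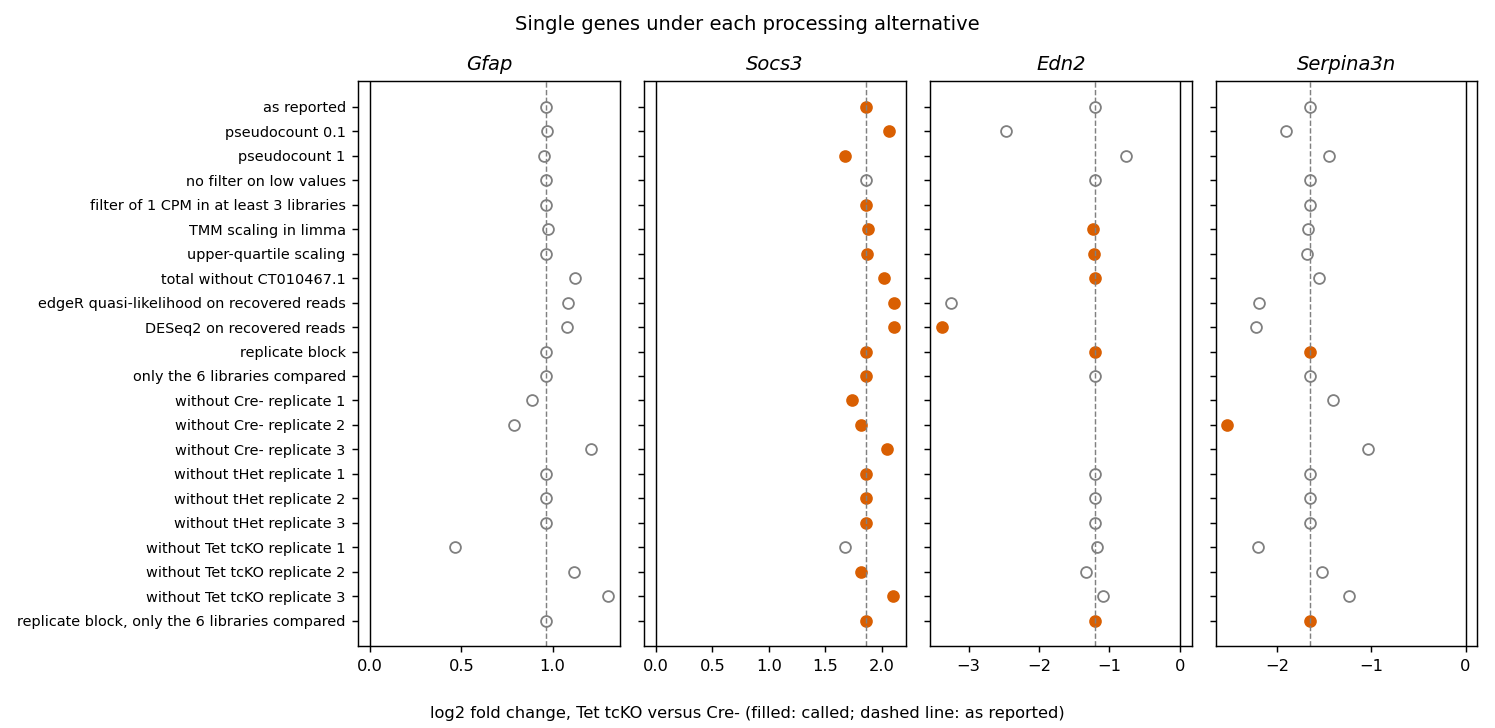
Log2FC in Tet tcKO versus Cre- (x axis) of Gfap, Socs3, Edn2 and Serpina3n as reported and under each processing alternative (y axis), with filled points where the gene is called. A missing point means that the gene was below the filter. Each gene keeps its side of 0, from 0.46 to 1.31 for Gfap, 1.68 to 2.11 for Socs3, −3.38 to −0.76 for Edn2 and −2.53 to −1.03 for Serpina3n.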

How the data were processed

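Whole retinas of 9 P21 samples were taken through matched DNA and RNA extraction, and the authors removed ribosomal RNA, made stranded libraries, trimmed reads (Trim Galore 0.6.7), aligned them to mm10 (STAR 2.7.0f) and counted them on genes (HTSeq 0.11.2). The annotation release and the strand and overlap settings are not given in the sources used here. The authors deposited CPM per gene and library, together with their own fold changes and p-values and genotype means, which were not used. Of the positive values, 100.0% came out as whole reads within 0.01, so reads were recovered.

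Genotypes came from the labels. Log2(CPM + 0.5) was fitted with limma 3.58.1 (R 4.3.3, intensity trend, all 9 libraries, no block) for the 21330 genes at or above 0.5 CPM in at least 3 libraries, with Benjamini-Hochberg adjustment over all of them. The smallest exact permutation p for 3 against 3 libraries is 0.1, so single genes were not permuted. Alternatives were other pseudocounts, filters and scalings, edgeR 4.0.16 (744 and 609 genes called versus Cre- and tHet) and DESeq2 1.42.0 on recovered reads, a replicate block, 6 libraries only and leaving out each library. The tests were tested on simulated data. Replicate numbers come from the labels. Deviations of same-numbered libraries from their group means correlated in all 3 pairs of Tet tcKO and Cre- (r = 0.15 to 0.56), and not in all pairs with tHet (−0.35 to 0.36). Unlike-numbered pairs over all genotypes ran from −0.57 to 0.50. Tet tcKO replicate 3 was closer to Cre- replicate 2 (0.23) than to Cre- replicate 3 (0.15). Pairing of Tet tcKO with Cre- by number is therefore an assumption that the labels do not state, and blocked values stand beside the results they change. Unless 6 libraries are named, these come from the fit of all 9, which blocks tHet too. A block over the 6 libraries of Tet tcKO and Cre- was added after seeing the data.

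All members are named. Named from the other lists were genes called in a comparison with Tet tcKO, fixed pathway and marker genes, and, by likeness to Gfap, Edn2 and Stat3, the 5 closest genes; further genes were named after their values were seen. Some genes that this rule covers are not reported here. The members and lists were chosen with earlier results of these data known. Gene positions and overlaps are from GENCODE M21, and C4b had no promoter entry. Libraries are pools of separate animals as far as the sources say, and p-values measure the spread between libraries.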

Additional observations from a re-analysis of the deposited data

How the results depend on the processing

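Direction and call held for most values of the members, with 555 refitted values on the same side of 0 and of the threshold, 23 on the other side of 0, 10 newly past the threshold and 6 no longer past it. Of the alternatives for Tet tcKO versus Cre-, no filter on low values left 0 members called, TMM scaling, upper-quartile scaling, totals without CT010467.1, DESeq2 and an adjusted p under 0.05 gave 2, the replicate block 3 over 9 or 6 libraries, and leaving out 1 library 0 to 2. For Tet tcKO versus tHet, no filter gave 0, only the 6 libraries compared 2, and leaving out 1 library 0 to 1. The call of Socs3 was lost with no filter (adjusted p = 0.0114 and 0.0130), where both the unadjusted p (from 3.96e-05 to 0.000126 versus Cre-) and the number of genes tested rose, and the members gained were Edn2 and Serpina3n. Edn2 was not tested under the filter of 1 CPM or with a Cre- library left out. The cause of these shifts was not tested.

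In Tet tcKO versus tHet the sign of Fgf2 turned under TMM scaling (0.065), without CT010467.1 (0.14), with edgeR (0.076) and with DESeq2 (0.075), and in tHet versus Cre- that of Socs3 turned with a pseudocount of 0.1 (−0.0048) and TMM scaling (−0.037). Leaving out 1 library at a time gave signs both ways for Lif in Tet tcKO versus Cre- (−0.35 to 0.085). In Tet tcKO versus tHet it did so for Gfap (−0.83 to 0.34), Fgf2 (−0.16 to 0.27), C4b (−0.65 to 0.11) and Osmr (−0.025 to 0.38). In tHet versus Cre- it did so for Stat3 (−0.031 to 0.18), Socs3 (−0.21 to 0.32) and Serpina3n (−1.12 to 0.38). Those genes were not called in these comparisons.

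Over all genes, calls in Tet tcKO versus Cre- fell from 768 to 417 with no filter, to 331 without Tet tcKO replicate 1, 389 without Tet tcKO replicate 3 and 423 without Cre- replicate 3, and rose to 1156 at an adjusted p under 0.05. In Tet tcKO versus tHet they moved from 640 to 351 with no filter, 1013 with the 6 libraries compared, 1046 with DESeq2 and 1104 at an adjusted p under 0.05, and to 252 to 973 without 1 library. In tHet versus Cre- they moved from 9 to between 0 and 40. The replicate block gave 1127 calls versus Cre- and, where the numbers were not taken to pair the libraries, 1125 versus tHet and 40 in tHet versus Cre-. Over the 6 libraries of Tet tcKO and Cre- alone, an alternative chosen after seeing the data that leaves few residual degrees of freedom, it gave 1507. Both blocks moved Edn2 (adjusted p = 0.00729 and 0.00102) and Serpina3n (adjusted p = 0.00418 and 5.38e-07) past the threshold versus Cre- and changed no other member's call in that comparison.

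Depth limits Edn2 and Lif, with 4 and 14 reads in the 3 Tet tcKO libraries.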
